A study of Mus musculus with 2 samples.

Results

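A set of 38 mouse genes for peroxisome biogenesis and peroxisomal lipid oxidation was followed in liver RNA from fasted CREBH KO, fed CREBH KO, fasted wild-type (WT) and fed WT mice. The genes were chosen by function: 12 peroxins, the enzymes of peroxisomal beta-oxidation and alpha-oxidation, membrane transporters, catalase and the first steps of ether lipid synthesis. A probe was assigned to a gene through its RefSeq accession. This found 43 probes for 37 of the 38 genes, out of 20284 genes named on the array, and left Far1 without a matched probe. Signals for 36 of the 37 were well above background in all 4 pools, as were those of 11290 of the 20284 named genes.

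The study asked how livers lacking CREBH, a membrane-bound liver transcription factor encoded by Creb3l3, differ from WT livers when mice are fed or fasted. Total RNA was pooled from livers of C57B6J mice, and the labels do not give the number of mice per pool. The labels call the KO mice CREBH null and name no other allele or agent. Food was withheld for 24 h in the fasted groups and given ad libitum in the fed groups. Each feeding state had 1 two-colour Agilent array, with KO RNA in Cy5 and WT RNA in Cy3, so that each of the 4 pools was measured once and no dye was swapped. The differences below therefore have no replicate check and no test, and a gene is counted as different when its log2 ratio is at least 1 in size, a 2-fold difference. Genotype cannot be told apart from dye, nor feeding state from array.

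Peroxisomes take up very-long-chain, branched-chain and dicarboxylic fatty acids and shorten them by beta-oxidation, in which the first step passes electrons to oxygen and yields hydrogen peroxide that catalase removes. Their membrane proteins are inserted by a small group of peroxins, and another group imports enzymes folded in the cytosol. In rodent liver many of these genes are targets of PPARα, the fatty acid-activated nuclear receptor of the fasting response.

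The labels were checked first on Creb3l3. Its signal was 7925 in fasted KO and 33362 in fasted WT livers, a log2 ratio of -2.07, and 8873 in fed KO and 16354 in fed WT livers, a log2 ratio of -0.88. It was lower in the KO pool on both arrays. The fed value turned to 0.31 when arrays were centred on all gene spots without loess, where the median of all genes also moved up by 0.76. Between 39.9% and 45.9% of gene spots were well above background in a channel, and none was saturated. Probes printed 10 times on each array had a median SD of 0.0795 for the log2 ratio of KO over WT on the fasted array and 0.0856 on the fed array, which covers spotting error and not differences between mice. All 6 hepatocyte markers were well above background in every pool.

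The promoters of 6 genes that the results turn on are printed because these genes had the largest fasting or genotype differences of their role, or form a paralogous pair. The windows are RefSeq GRCm38.p6 sequence from 250 bases before to 50 after the annotated start, written 5′ to 3′ on the gene's own strand. Ehhadh lies at chr16:21787785-21788084 on the minus strand and Ech1 at chr7:28825088-28825387 on the plus strand. Acaa1b lies at chr9:119157044-119157343 on the minus strand and Acaa1a at chr9:119341044-119341343 on the plus strand. Pex11a lies at chr7:79743082-79743381 and Decr2 at chr17:26090115-26090414, both on the minus strand. Capitals mark GGGCGG (a GC box), CCAAT and TGACGT (a cyclic AMP-response core) on either strand, where neighbouring matches run together, and any match within 3 mismatches to AGGTCA written 2 times with 1 base between, the direct repeat bound by PPARα with its partner RXR.
Ehhadh: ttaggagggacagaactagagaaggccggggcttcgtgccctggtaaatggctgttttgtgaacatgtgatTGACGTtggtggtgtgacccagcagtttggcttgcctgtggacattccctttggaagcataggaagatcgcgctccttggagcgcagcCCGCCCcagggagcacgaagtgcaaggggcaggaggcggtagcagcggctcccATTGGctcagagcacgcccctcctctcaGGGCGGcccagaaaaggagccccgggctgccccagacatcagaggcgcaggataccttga
Ech1: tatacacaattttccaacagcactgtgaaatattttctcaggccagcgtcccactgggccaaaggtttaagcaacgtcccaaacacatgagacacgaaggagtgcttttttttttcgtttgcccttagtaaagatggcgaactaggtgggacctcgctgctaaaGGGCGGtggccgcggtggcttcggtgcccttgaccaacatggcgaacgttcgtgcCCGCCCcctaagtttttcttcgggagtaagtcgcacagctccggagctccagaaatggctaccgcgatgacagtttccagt
Acaa1b: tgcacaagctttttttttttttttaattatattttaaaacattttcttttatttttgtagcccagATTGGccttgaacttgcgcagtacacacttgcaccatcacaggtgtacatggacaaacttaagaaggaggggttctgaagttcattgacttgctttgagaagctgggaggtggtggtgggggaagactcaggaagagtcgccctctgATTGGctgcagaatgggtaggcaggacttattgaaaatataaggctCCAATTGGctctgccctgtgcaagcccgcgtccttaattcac
Acaa1a: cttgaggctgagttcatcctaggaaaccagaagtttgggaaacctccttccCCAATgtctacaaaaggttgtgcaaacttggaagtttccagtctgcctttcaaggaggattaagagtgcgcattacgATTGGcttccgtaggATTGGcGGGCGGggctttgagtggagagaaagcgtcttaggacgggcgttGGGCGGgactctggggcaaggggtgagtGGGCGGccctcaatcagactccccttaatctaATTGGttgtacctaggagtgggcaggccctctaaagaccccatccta
Pex11a: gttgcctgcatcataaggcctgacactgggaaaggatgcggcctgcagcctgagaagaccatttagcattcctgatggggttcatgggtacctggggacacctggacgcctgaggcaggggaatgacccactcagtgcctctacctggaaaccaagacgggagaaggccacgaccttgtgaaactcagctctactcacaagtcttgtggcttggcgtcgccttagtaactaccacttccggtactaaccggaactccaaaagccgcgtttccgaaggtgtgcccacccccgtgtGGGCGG
Decr2: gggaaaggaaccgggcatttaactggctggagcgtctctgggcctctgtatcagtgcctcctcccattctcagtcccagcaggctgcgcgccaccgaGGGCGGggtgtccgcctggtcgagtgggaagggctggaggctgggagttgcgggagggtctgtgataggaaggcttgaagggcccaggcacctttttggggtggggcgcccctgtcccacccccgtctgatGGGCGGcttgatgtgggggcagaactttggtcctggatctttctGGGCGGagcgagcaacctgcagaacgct

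RefSeq windows were found for 31 of the 38 genes, 36 windows in all, and were set beside 32851 windows of all genes. GGGCGG was in 72.2% of the peroxisomal windows, against 35.7% of all windows. CCAAT was in 18 of the 36, against 37.4% of all. The peroxisomal windows were also richer in G and C, with a median of 58.8% against 52.7%. TGACGT was in 8.33% of the peroxisomal windows, those of Pex5, Pex13 and Ehhadh, against 7.51% of all. In the Ehhadh window it starts at position -179 from the annotated start. The PPARα repeat with up to 2 mismatches was in 5.56% of the peroxisomal windows, those of Cat and Acox2, against 3.86% of all. With up to 3 mismatches it was in 19.4%, against 24.65% of all. Among genes at least 2-fold higher after fasting in KO or WT, 9 of the 10 with a window held GGGCGG, against 16 of the 21 other genes of the set with a window. The 21 include Far1, whose window held GGGCGG and CCAAT but which had no probe and so no fasting value. CCAAT was in 7 of these 10 and 10 of these 21, and TGACGT in 1 and 2. The PPARα repeat with up to 3 mismatches was in 1 of the 10 and 5 of the 21, and with up to 2 mismatches in 0 and 2. Sequence outside these windows was not searched, so the counts do not show whether a gene lacks the repeat. In a global alignment with gaps, the windows of Acaa1a and Acaa1b shared 177 identical bases of 300, or 59.0%. Gaps raise such a share, and no unrelated pair was aligned beside it.

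In KO livers 11 of the 36 measured genes differed by at least 2-fold between fasted and fed pools, beside 4.68% of all measured genes. Of these, 10 had the higher signal after fasting, or 27.8%, beside 2.59% of all, and 1 had the lower signal, beside 2.10% of all. In WT livers 9 of 36, or 25.0%, differed by as much, beside 4.28% of all. All 9 were higher after fasting, beside 2.36% of all, and none was lower, beside 1.92% of all. Of the 12 genes of beta-oxidation, its auxiliary steps and acyl export, 8 were at least 2-fold higher after fasting in KO livers and 6 in WT livers, whereas Acox3 was at least 2-fold lower in KO livers. The median log2 ratio of fasted over fed was 0.51 for the set in KO livers and 0.38 in WT livers, beside 0.01 for all genes in each. Above 0 were 30 of 36 genes in KO livers and 31 of 36 in WT livers. In each genotype Ehhadh was the highest of the 36 and Acox3 the lowest. All 4 endothelial markers were also higher after fasting, with a median log2 ratio of 0.72 in KO and 0.53 in WT livers. Their summed signals were 8509.5 in fasted KO and 5017 in fed KO livers, against 7914 in fasted WT and 5130.3 in fed WT livers, and their part in these results was not tested. Of 6 hepatocyte markers 4 were higher in each genotype, with medians of 0.31 in KO and 0.25 in WT livers. All 3 measured stellate markers were lower, with medians of -0.19 and -0.33. All 5 measured Kupffer cell markers were higher in KO livers, but 4 of them were lower in WT livers. The remaining lists went both ways. Pools of liver RNA cannot tell fewer cells of a type from less RNA per cell.

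**Figure D1:**
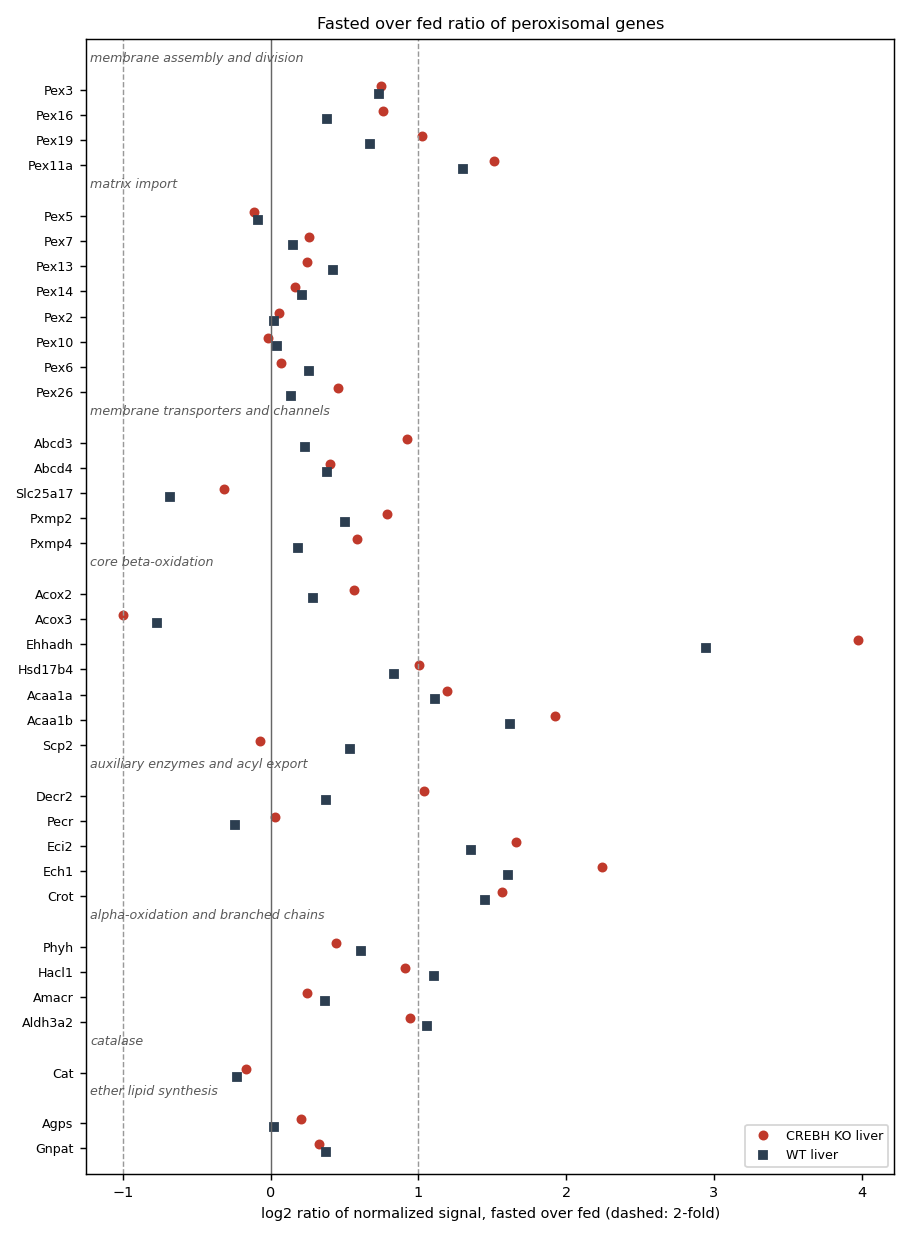
Log2 ratio of fasted over fed (horizontal axis) for each measured peroxisomal gene (vertical axis, ordered by role), with circles for KO and squares for WT livers, 1 pool per group and no error bars. Ehhadh reached 3.97 in KO and 2.94 in WT livers, whereas the import peroxins lay between -0.12 and 0.45 in both.

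The 4 peroxins of membrane assembly and division had median log2 ratios of fasted over fed of 0.89 in KO and 0.70 in WT livers. At least 2-fold higher were 2 of them in KO livers, beside 2.59% of all genes, and 1 in WT livers, beside 2.36%. Pex11a, which elongates and divides peroxisomes, had a signal of 20479 in fasted KO and 7181 in fed KO livers, and 14866 in fasted WT and 6037 in fed WT livers. This is 2.85-fold higher after fasting in KO and 2.46-fold higher in WT livers. Pex19, the cytosolic carrier of new membrane proteins, had 1057 in fasted KO and 519.8 in fed KO livers, against 1029 in fasted WT and 646 in fed WT livers. Its log2 ratio of fasted over fed was 1.02 in KO and 0.67 in WT livers. The KO value was 0.95, under 2-fold, with arrays centred on all gene spots without loess. The fasted pools were nearly level and the fed KO pool was the lowest. Pex3, the membrane anchor of Pex19, and Pex16, its partner in membrane assembly, are given with their values although neither reached 2-fold. Pex3 had log2 ratios of fasted over fed of 0.74 in KO and 0.73 in WT livers, and Pex16 had 0.76 and 0.38.

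None of the 8 peroxins of matrix protein import reached a 2-fold difference in any comparison. Between fasted and fed pools only 4.68% of all genes in KO and 4.28% in WT livers did. The count therefore says nothing particular of these 8 genes. Their median log2 ratio of fasted over fed was 0.12 in KO and 0.14 in WT livers. Pex7, the receptor for enzymes with an N-terminal targeting signal such as thiolase, had 2041 in fasted KO and 1707 in fed KO livers, against 2130.1 in fasted WT and 1920.1 in fed WT livers. Pex5, the receptor for the C-terminal signal that most matrix enzymes carry, had log2 ratios of fasted over fed of -0.12 in KO and -0.09 in WT livers. The docking factors Pex13 and Pex14 had 0.24 and 0.16 in KO livers, and 0.42 and 0.21 in WT livers. The ubiquitin ligase subunits Pex2 and Pex10 had 0.06 and -0.02 in KO livers, and 0.02 and 0.04 in WT livers. Pex6, an ATPase that recycles the receptors, and its anchor Pex26 had 0.07 and 0.45 in KO livers, and 0.26 and 0.14 in WT livers. The values of the import and assembly peroxins overlapped in WT livers, where Pex13 lay above Pex16, and the difference between these groups was not tested.

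Among the 7 core beta-oxidation genes, Ehhadh stood highest. Ehhadh encodes the bifunctional enzyme that hydrates and then dehydrogenates straight-chain and dicarboxylic intermediates. Its signal was 31255 in fasted KO and 1990.1 in fed KO livers, 15.7-fold higher, and 16995 in fasted WT and 2209 in fed WT livers, 7.69-fold higher. The fed pools were nearly level, and the fasted KO pool was the highest of the 4. Hsd17b4, the second bifunctional enzyme, which handles branched-chain and bile acid intermediates, had 22829 in fasted KO and 11376 in fed KO livers. In WT livers it had 21570.1 fasted and 12120.2 fed. It was 2.01-fold higher after fasting in KO and 1.78-fold higher in WT livers, so the 2-fold line fell between them while the values themselves differed little. Scp2, which encodes a sterol carrier and the thiolase for branched chains, had 53321 in fasted KO and 56097 in fed KO livers, against 83136 in fasted WT and 57213 in fed WT livers. Its log2 ratio of fasted over fed was -0.07 in KO and 0.54 in WT livers, and a second Scp2 probe gave -0.65 and 0.25. Scp2 is named here and below after its values were seen.

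The thiolases cleave the shortened chain. Acaa1a had 51133 in fasted KO and 22313 in fed KO livers, against 45052 in fasted WT and 20866 in fed WT livers. Acaa1b, the copy known in rodents for its response to fibrate drugs, had 31289 in fasted KO and 8248 in fed KO livers, against 31039 in fasted WT and 10124 in fed WT livers. Fasting went with a 2.29-fold and a 3.79-fold higher signal for Acaa1a and Acaa1b in KO livers, and with a 2.16-fold and a 3.07-fold higher signal in WT livers. The genes are close paralogues, and how much either probe also binds the other transcript was not tested. The oxidases of branched chains gave other values. Acox3, which oxidises pristanic acid, had 442 in fasted KO and 885 in fed KO livers, against 437 in fasted WT and 747 in fed WT livers. It was just past 2-fold lower after fasting in KO and 1.71-fold lower in WT livers, and a second Acox3 probe gave log2 ratios of -0.51 and -0.32. Acox2, the oxidase of bile acid intermediates, had log2 ratios of 0.57 in KO and 0.29 in WT livers.

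**Figure D2:**
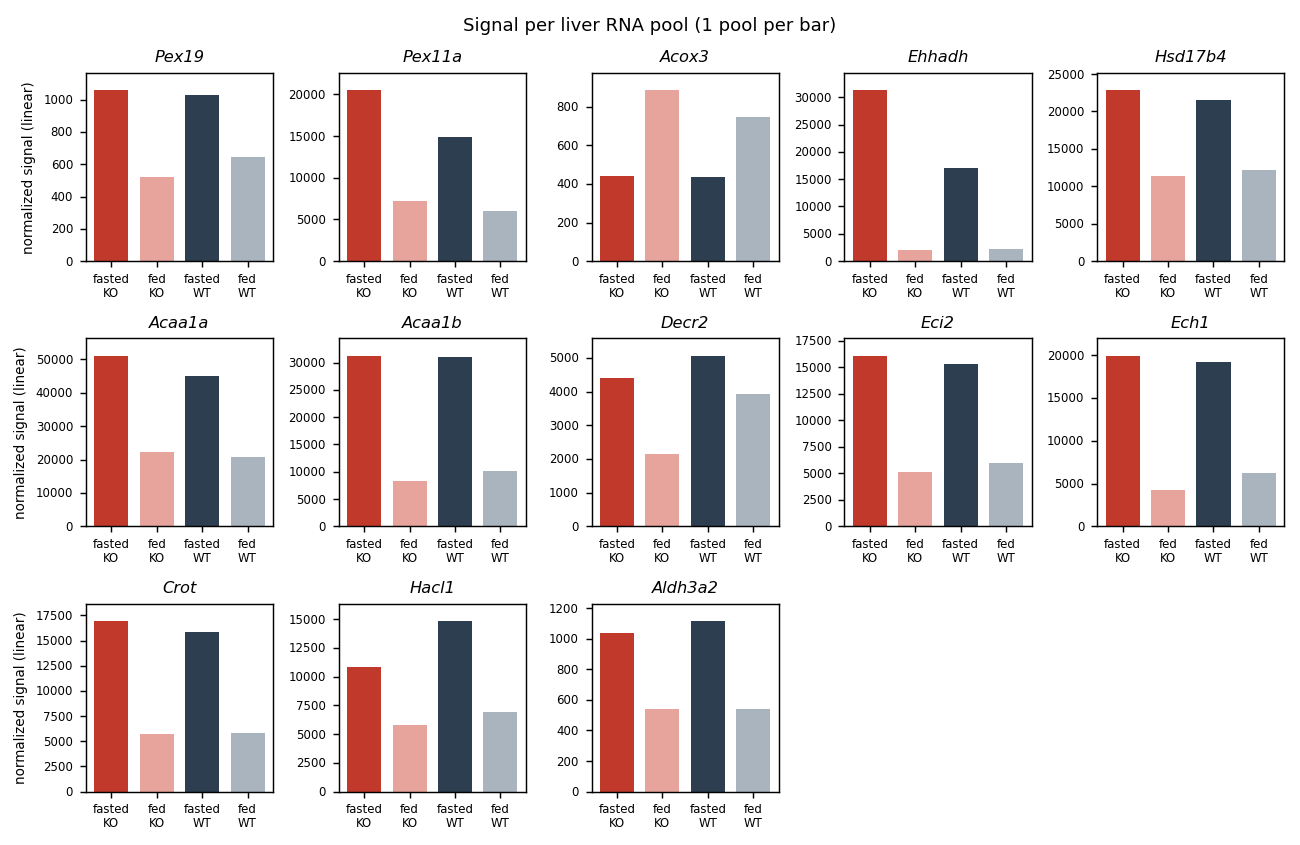
Normalized linear signal (vertical axis, starting at 0, own scale per gene) in fasted KO, fed KO, fasted WT and fed WT livers for the 13 genes at least 2-fold apart in any comparison, 1 pool per bar and no error bars. Fasted bars exceed fed bars of the same genotype for 12 genes, and Acox3 shows the opposite order.

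The auxiliary enzymes, which prepare unsaturated chains, and the export step make up 5 genes. At least 2-fold higher after fasting were 4 in KO livers, beside 2.59% of all genes, and 3 in WT livers, beside 2.36%. Ech1, a dienoyl-CoA isomerase shared by peroxisomes and mitochondria, had 19961 in fasted KO and 4222 in fed KO livers, 4.73-fold higher, and 19172 in fasted WT and 6286 in fed WT livers, 3.05-fold higher. Eci2, an enoyl-CoA isomerase, had 16108 in fasted KO and 5089.6 in fed KO livers, against 15299.6 in fasted WT and 5981 in fed WT livers. Crot, which turns shortened chains into carnitine esters that leave for mitochondria, had 16972 in fasted KO and 5737 in fed KO livers, against 15877 in fasted WT and 5797 in fed WT livers. All 3 were past 2-fold in both genotypes, with log2 ratios of 1.66 and 1.35 for Eci2 and 1.56 and 1.45 for Crot in KO and WT livers. Decr2, the dienoyl-CoA reductase, had 4411 in fasted KO and 2152 in fed KO livers, against 5069 in fasted WT and 3919 in fed WT livers. Its log2 ratio of fasted over fed was 1.04 in KO and 0.37 in WT livers, and the fed KO pool was the one that stood low. Pecr, an enoyl-CoA reductase, had 0.03 in KO and -0.24 in WT livers.

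Alpha-oxidation removes 1 carbon from methyl-branched fatty acids such as phytanic acid. Hacl1, the lyase of that pathway, had 10840.4 in fasted KO and 5781 in fed KO livers, against 14871 in fasted WT and 6911 in fed WT livers. Aldh3a2, a fatty aldehyde dehydrogenase, had 1036 in fasted KO and 539.6 in fed KO livers, against 1119 in fasted WT and 538 in fed WT livers. Both passed 2-fold in WT livers, with log2 ratios of 1.11 and 1.06, and not in KO livers, with 0.91 and 0.94. These pairs differ by 0.20 and 0.12, and neither difference was tested. Phyh, the phytanoyl-CoA hydroxylase, and Amacr, a racemase grouped here for branched chains, had 0.44 and 0.24 in KO livers, and 0.61 and 0.36 in WT livers.

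The membrane transporters had no gene past 2-fold, which for so few genes is near the share of all genes. Abcd3, an importer of branched-chain and bile acid intermediates, had 23648 in fasted KO and 12502 in fed KO livers, against 17385 in fasted WT and 14834 in fed WT livers. Its log2 ratio of fasted over fed was 0.92 in KO and 0.23 in WT livers. Slc25a17, a carrier of cofactors such as coenzyme A, had -0.32 in KO and -0.68 in WT livers, and the channel protein Pxmp2 had 0.79 and 0.50. Pxmp4, another membrane protein, had 0.59 in KO and 0.19 in WT livers. Abcd4, a relative that acts on lysosomes in cobalamin transport, had 0.40 in KO and 0.38 in WT livers. Abcd2, an importer of very-long-chain fatty acids, was not well above background in any pool, with 67.3 and 57.9 in fasted and fed KO livers and 69.0 and 70.1 in fasted and fed WT livers.

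Catalase and the ether lipid enzymes stayed inside 2-fold, as did most measured genes. Cat had 7419 in fasted KO and 8345 in fed KO livers, against 6172 in fasted WT and 7222 in fed WT livers, log2 ratios of -0.17 and -0.23. A second Cat probe gave 0.34 in KO and 0.32 in WT livers, so the direction for Cat is not settled. Gnpat, which starts plasmalogen synthesis, had 1593 in fasted KO and 1272 in fed KO livers, against 1636 in fasted WT and 1261 in fed WT livers. Agps, the following enzyme, had log2 ratios of fasted over fed of 0.21 in KO and 0.02 in WT livers.

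No gene of the set differed by 2-fold between KO and WT livers. The shares of all genes were also small, so this count says nothing particular of the set. None of 36 measured genes reached 2-fold between fasted KO and fasted WT livers, beside 0.791% of 12262 genes, and none between fed KO and fed WT livers, beside 0.554% of 11377 genes. The median log2 ratio of KO over WT was 0.03 in fasted livers, with 20 genes above 0 and 16 below, and -0.02 in fed livers, with 14 above and 22 below. For all genes it was 0.01 in each state. Without loess and with arrays centred on all gene spots, the median of all genes moved up by 0.56 on the fasted and 0.76 on the fed array, so ranges over alternatives are given below relative to that median.

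**Figure D3:**
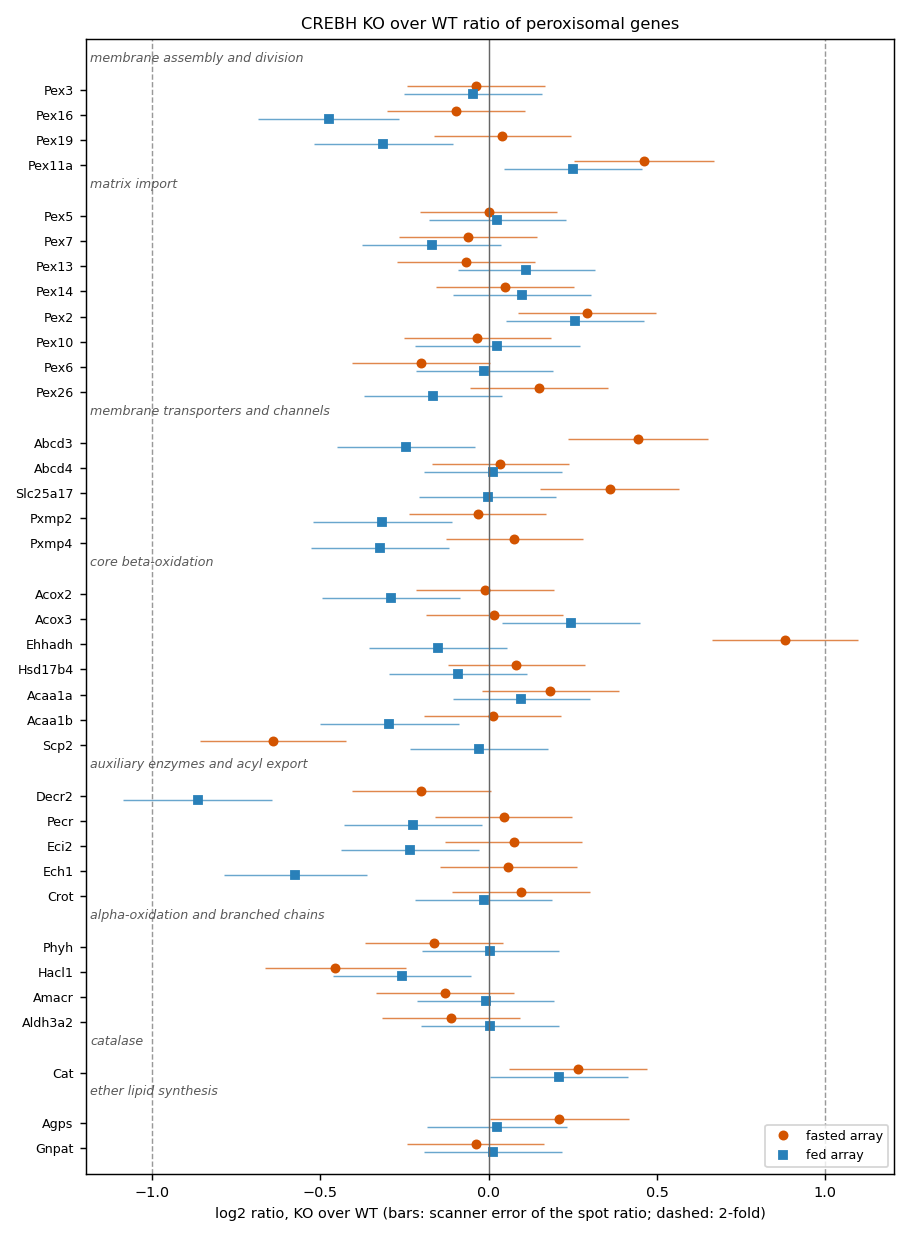
Log2 ratio of KO over WT (horizontal axis) for each measured peroxisomal gene (vertical axis, ordered by role), with circles for fasted and squares for fed livers. Bars are the scanner software's error of the spot ratio, not biological error, and the genes farthest from 0 are Ehhadh in fasted livers at 0.88 and Decr2 in fed livers at -0.86.

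In fasted livers the genes farthest from 0 lay in beta-oxidation. Ehhadh was 1.84-fold higher in KO, at 31255 in fasted KO and 16995 in fasted WT livers. Its log2 ratio was 0.88, with 0.81 to 1.31 relative to all genes over the alternatives, and the scanner software's own ratio was 0.81 with an error of 0.22. Scp2 was the lowest, with 53321 in fasted KO and 83136 in fasted WT livers, a log2 ratio of -0.64. A second Scp2 probe gave -0.90, and the alternatives ran between -0.84 and -0.11 relative to all genes. Hacl1 had -0.46, and all 4 genes of alpha-oxidation and branched chains lay below 0, with a median of -0.15. Phyh, Amacr and Aldh3a2 had -0.16, -0.13 and -0.11, smaller than their scanner errors of 0.21, 0.20 and 0.20. Without loess Phyh, Amacr and Aldh3a2 reached 0.32, 0.25 and 0.03 relative to all genes, so their sign is not settled. Pex11a and Abcd3 had 0.46 and 0.44, and ran between 0.45 and 0.87 and between 0.43 and 0.86 over the alternatives.

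In fed livers the genes farthest from 0 were lower in KO. Decr2 had 2152 in fed KO and 3919 in fed WT livers, 1.82-fold lower in KO, and its log2 ratio of -0.86 ran between -0.94 and -0.59 relative to all genes over the alternatives. Ech1 had 4222 in fed KO and 6286 in fed WT livers, a log2 ratio of -0.57 that ran between -0.59 and -0.24. Pex16, named for its rank after its values were seen, had 1891 in fed KO and 2629 in fed WT livers, a log2 ratio of -0.48 that ran between -0.51 and -0.22. All 5 auxiliary and export genes were below 0 in fed livers, with a median of -0.23, although without loess Pecr, Eci2 and Crot reached 0.22, 0.11 and 0.33 relative to all genes. In fasted livers 4 of the 5 were above 0, with a median of 0.06. Ehhadh had -0.15 in fed livers with a scanner error of 0.20. All 5 measured Kupffer cell markers were also lower in fed KO than in fed WT livers, with a median log2 ratio of -0.32 and summed signals of 8024 in fed KO and 10957 in fed WT livers. In fasted livers 4 of the 5 were higher in KO, with summed signals of 10858 in fasted KO and 9951 in fasted WT livers, and their part in these results was not tested.

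The genotype ratios were then set against each other by feeding state, as the fasted minus the fed log2 ratio of KO over WT. Ehhadh was the 1 gene of 36 whose ratios differed by at least 2-fold, at 1.03, beside 1.37% of 11290 genes. With scanner-processed signals and in the authors' value table it was 0.99, under 2-fold. As 1 of 36 is 2.78%, the count says nothing particular of the set. It was higher in the fasted state, beside 0.771% of genes. None differed by as much in the other direction, beside 0.602% of genes. The set's median was 0.11, with 24 of 36 genes above 0, beside -0.01 for all genes, of which 5511 lay above 0 and 5779 below. All 5 measured transporters were above 0, with Abcd3 the highest at 0.69, although Abcd4 turned from 0.02 to -0.14 with arrays centred on all gene spots, where all genes moved by -0.16. Decr2 had 0.66 and Ech1 had 0.63. Scp2 was the lowest at -0.61, with -0.89 from its second probe. Among spots of probes printed 10 times on each array this quantity had a median SD of 0.0976, which does not include differences between mice.

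**Figure D4:**
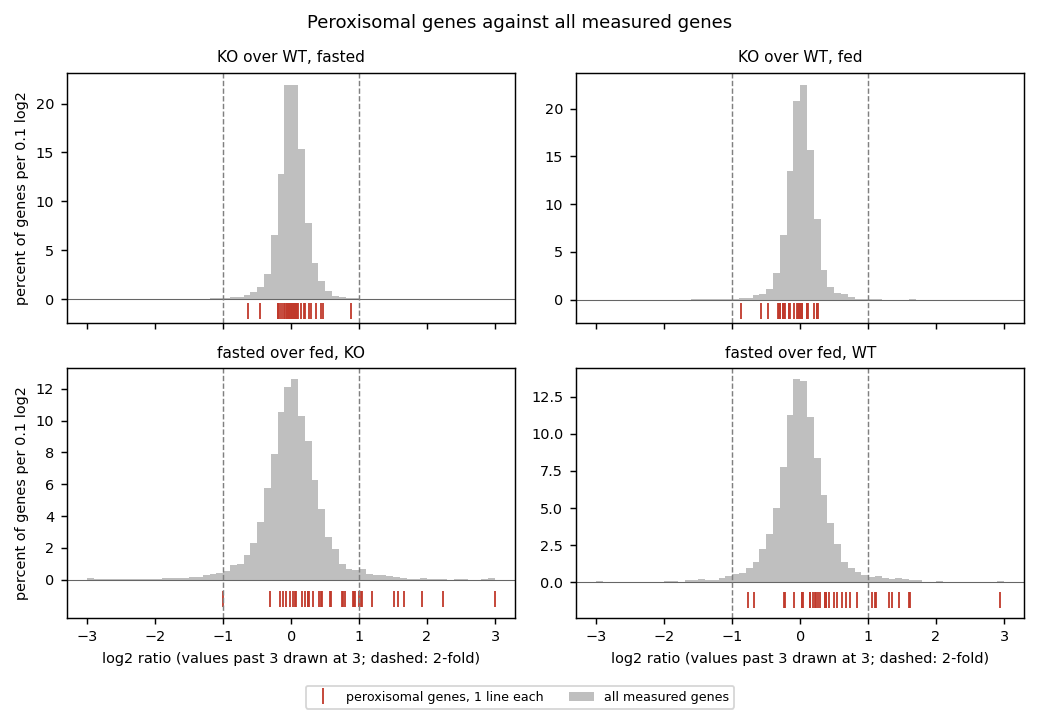
Share of all measured genes per 0.1 of log2 ratio (vertical axis) against the log2 ratio (horizontal axis, values past 3 drawn at 3) for KO over WT in fasted and fed livers and for fasted over fed in KO and WT livers, with a line below the axis for each of the 36 peroxisomal genes. The peroxisomal lines lie within the dashed 2-fold limits in both genotype panels, and 10 in KO and 9 in WT livers lie past the upper limit in the fasting panels.

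Other peroxisomal genes that are not in the set gave a wider mix. Of those measured, 8 of 36 were at least 2-fold higher after fasting in KO livers, beside 2.59% of all genes. In these livers 2 were lower, beside 2.10%. In WT livers 8 of 37 were higher, beside 2.36%, and 3 were lower, beside 1.92%. Higher signals after fasting were thus not particular to the set but shared by these other genes. Their median log2 ratios of fasted over fed were 0.11 in KO and -0.01 in WT livers. Acot4, an acyl-CoA thioesterase, had 1.62 in KO and 1.77 in WT livers, whereas Nudt7, a coenzyme A hydrolase, had -2.06 and -1.84. None reached 2-fold between KO and WT in either state, beside 0.791% of all genes in fasted and 0.554% in fed livers. Pex11g, a relative of Pex11a named after its values were seen, had log2 ratios of fasted over fed of -0.16 in KO and -0.24 in WT livers.

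The receptor PPARα, its partner Rxra, the coactivator Ppargc1a and known target genes outside the set, 15 genes in all, were all measured. After fasting 10 of the 15 were at least 2-fold higher in KO livers, beside 2.59% of all genes, and 12 in WT livers, beside 2.36%. The median log2 ratios were close, at 1.45 and 1.47, but single genes differed between the genotypes. In fed livers 3 of the 15, Cyp4a14, Cyp4a10 and Vnn1, were at least 2-fold lower in KO, beside 0.396% of all genes, and none was higher, beside 0.158%. In fasted livers 2 were at least 2-fold higher in KO, beside 0.359% of all genes, and 1 was lower, beside 0.432%. Ppara itself had 6453 in fasted KO and 5614 in fed KO livers, against 10764 in fasted WT and 5389 in fed WT livers. Its log2 ratio of KO over WT was -0.74 in fasted and 0.06 in fed livers. Cyp4a14, a fatty acid omega-hydroxylase whose products feed the Ehhadh step, had 199407 in fasted KO and 242 in fed KO livers, against 77471 in fasted WT and 3296 in fed WT livers. Its log2 ratio of KO over WT was 1.36 in fasted livers and -3.77 in fed livers, where Ehhadh had 0.88 and -0.15. A link between Cyp4a14 and Ehhadh was not tested. Cpt1a, the gate of mitochondrial oxidation, had -0.82 in fasted and -0.08 in fed livers.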

How the data were processed

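Two-colour Agilent arrays were read with Agilent Feature Extraction 10.10.1.1, per the file headers, and the array grid names build mm9. Each deposited scanner file gave median signals and backgrounds as intensity values, processed intensities, and a log10 ratio of Cy5 over Cy3 with its error and p-value, per the file headers. The deposited value table held log2 ratios of KO over WT that matched the scanner ratios. The scanner p-values of single spots were not used.

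Median intensities were background-corrected here with normexp (offset 50) in limma 3.58.1 under R 4.3.3, normalized by loess within arrays with 3671 control spots at weight 0, and set to a common average quantile between arrays. Outlier spots (216 fed, 197 fasted) were left out. Spots of a probe were averaged, and each gene took its probe of highest mean signal. A gene counted as measured where at least 50% of spots were well above background in each channel compared. Of 55681 probes, 26762 were named through the RefSeq table of GRCm38.p6. The gene set and lists were chosen with earlier results of these data known. Genes named are those at least 2-fold apart in a comparison, the member of highest signal in each other role, up to 4 genes of each further list, Ppara and Creb3l3, and others where the text says so or where they complete a role. In a check, known changes were written into the Cy5 signals of probes well above background on the fasted array. The KO over WT ratio there kept their direction and understated their size in the median. Ratios of fasted over fed, dim probes and the fed array were not checked in this way. Depth is limited by 1 array per feeding state.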

Additional observations from a re-analysis of the deposited data

Results flagged for a closer look

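Ehhadh was singled out because its genotype ratios differed by at least 2-fold between the 2 feeding states and lay on opposite sides of 0. The log2 ratio of KO over WT was 0.88 in fasted livers and -0.15 in fed livers, and the fasted minus the fed ratio was 1.0295. The fed ratio is smaller than the scanner software's error of 0.20 for it, so its sign is not settled, and smaller differences with opposite signs occurred for other genes of the set. With scanner-processed signals and in the authors' value table the difference was 0.99, under 2-fold. Each ratio comes from 1 pool per group, and the difference between the feeding states was not tested.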

How the results depend on the processing

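All 9 genes at least 2-fold higher after fasting in WT livers, and the 7 shared by both genotypes, stayed past 2-fold under all 8 alternatives. Averaging probes and dropping the filter on dim probes could not change these values, since each gene had 1 probe, well above background. Leaving out normalization between arrays moved all genes up, as given below, and so favoured higher values. In KO livers Hsd17b4 dropped below the line with scanner-processed signals (0.99), with arrays centred on all gene spots without loess (0.91) and with arrays centred on measured genes without loess (0.99), the last chosen after seeing the data. Centring on all gene spots also took Pex19 to 0.95 and Decr2 to 0.93. Acox3 had -0.998 with arrays centred on measured genes after loess, -0.76 as the mean of its probes and -0.44 with no normalization between arrays. Without that normalization 19 genes in KO and 15 in WT livers were past 2-fold, with medians of 1.095 and 0.97, while the median of all genes moved up by 0.43 and 0.45. Centring on all gene spots gave fasting medians of 0.40 in KO and 0.49 in WT livers. It gave genotype medians of 0.84 in fasted and 0.90 in fed livers with 13 genes past 2-fold in each, and -0.067 for the difference between states. Centring on measured genes without loess gave genotype medians of 0.28 in fasted and 0.18 in fed livers, with 1 gene, Ehhadh, past 2-fold in fasted livers. The fed genotype median was -0.12 with scanner-processed signals and with the authors' value table, under which 0 genes differed by 2-fold between states, Ehhadh being at 0.99 in both. No paired analysis was possible because each feeding state has 1 array and the labels carry no replicate numbers.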
